A study of Mus musculus with 2 samples.

Results

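The 9 genes Ghr, Prlr, Igf1, Igfbp1, Igfbp2, Igfbp4, Fgf21, Angptl4 and Angptl8 were taken by symbol from the gene list of 31053 entries that came with the libraries. All 9 were listed there, and each had at least 1 UMI in both libraries. They belong to the growth hormone axis of the liver or encode hormones that hepatocytes secrete. The livers came from C57BL/6 mice that received a chow diet or a NASH diet (non-alcoholic steatohepatitis; the labels give high fructose, fat and cholesterol) over 6.5 weeks. The labels name no genetic change for either group and do not say how many mice entered a library, nor their age or sex. Cells were freed with collagenase, passed over Percoll and sequenced from the 3' end of the transcript with 10x Genomics chemistry, in which a unique molecular identifier (UMI) marks 1 captured RNA molecule.

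Growth hormone reaches hepatocytes through its receptor, Ghr, and through the JAK2 and STAT5 proteins it drives transcription of Igf1; the liver is the main source of this insulin-like growth factor in the circulation. The binding proteins Igfbp1, Igfbp2 and Igfbp4 hold that factor in plasma and tissue, and transcription of Igfbp1 is known to be repressed by insulin. Fgf21, Angptl4 and Angptl8 are secreted signals of fasting and feeding: Fgf21 acts through the co-receptor Klb, while Angptl4 and Angptl8 limit lipoprotein lipase, the enzyme that clears triglyceride from plasma.

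Each diet had 1 library, so no difference between the diets was tested, and diet cannot be told apart from mouse, digestion or library. Intervals below are exact 95% intervals for counting error alone. After filtering, 4041 chow and 2305 NASH diet barcodes remained, of which 1783 and 992 were hepatocyte-like. These cells had median depths of 25504 and 20473 UMIs and, summed, 44573760 and 20806895 UMIs. Levels are UMIs per 1000000 UMIs of the summed cells (CPM), and log2 ratios carry a pseudocount of 5 CPM. The summed chow cells held Alb, which encodes albumin, at 26415 CPM. Many barcodes outside the class also carried hepatocyte RNA. A cluster of 1747 chow barcodes had a median of 645 UMIs, with Alb at 7159 CPM, and an unnamed cluster of 986 NASH diet barcodes had a median of 1189 UMIs, with Alb at 8422 CPM. The unnamed clusters together held 308 chow and 1127 NASH diet barcodes, 48.9% of those kept in the latter library. The median mitochondrial share of the hepatocyte-like cells was 18.8% and 23.8%, and 8 of the kept barcodes occurred in both libraries. Within the class, 1 cluster (14 cells from chow, 74 from the NASH diet) had the nuclear RNAs Malat1, Neat1 and Kcnq1ot1 among its leading genes against all other cells. Its median depth was 4166.5 UMIs, and it is treated separately where a value rests on it. The class also held 60 chow and 7 NASH diet cells that formed a cholangiocyte cluster at a finer resolution and whose chow cells carried Alb at 30267 CPM.

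In hepatocyte-like cells, Igfbp2 was 2.60-fold higher in the NASH diet library, Igfbp1 9.60-fold lower and Prlr 2.40-fold lower, as ratios of CPM without a pseudocount. On the same basis Angptl8 was 2.04-fold and Ghr 1.61-fold higher. Genes were called on the log2 ratio with the pseudocount, where Angptl8 had 0.97 and so missed the 2-fold limit. Igf1, Igfbp4, Fgf21 and Angptl4 had log2 ratios between -0.19 and 0.14. Of the 9 genes, 1 was thus at least 2-fold higher, where 2.19% of 7893 genes tested were, and 2 were at least 2-fold lower, where 1.58% were. The median log2 ratio of the 9 genes was 0.11, as was that of all genes tested (0.11). Differences past 2-fold thus went both ways among the 9.

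**Figure D1:**
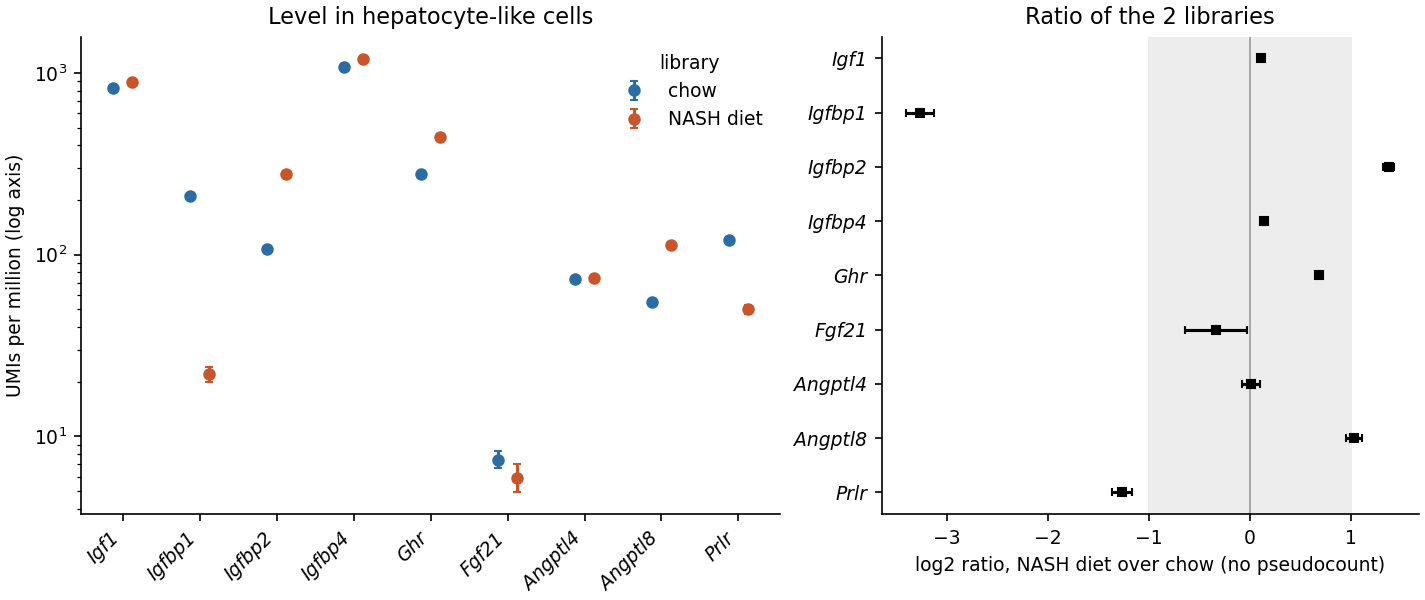
Left, summed level of each gene in hepatocyte-like cells of the chow library (blue) and the NASH diet library (orange), in CPM on a log axis with exact 95% Poisson intervals. Right, log2 ratio of the NASH diet library over the chow library without a pseudocount, with its exact 95% interval, and the range within 2-fold shaded; Igfbp1 lies farthest from 0, at -3.26.

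The receptors differed in opposite directions. Ghr, the growth hormone receptor (chromosome 15, 3317760 to 3583492, minus strand, build GRCm38, GENCODE M21), stood at 277 CPM (272 to 282) with chow and 447 CPM (438 to 456) with the NASH diet. Its log2 ratio was 0.68, under the 2-fold limit, and 645 of the 7893 genes had one at least as large in absolute size. Prlr, the prolactin receptor, a relative of Ghr that also signals through JAK2 and STAT5 (chromosome 15, 10177238 to 10349180, plus strand), stood at 120 CPM against 50.03 CPM, and its log2 ratio was -1.19. With cells thinned to 5000 UMIs each, a Ghr UMI was seen in 72.8% of cells with chow (95% interval 70.6 to 74.9%) and in 89.2% with the NASH diet (87.0 to 91.1%). For Prlr these shares were 44.0% (41.6 to 46.4%) and 21.5% (18.9 to 24.2%). Prlr overlaps Gm21973 on the same strand in the annotation, so reads of the shared stretch could have been split or dropped.

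Igf1, the hormone through which growth hormone acts on other tissues (chromosome 10, 87858265 to 87937042, plus strand), had 36705 UMIs with chow and 18487 with the NASH diet. This gave 823 CPM (815 to 832) and 889 CPM (876 to 901), and the log2 ratio of 0.11 equalled the median of all genes tested. A UMI of Igf1 was seen in 97.3% of thinned chow cells and 96.9% of thinned NASH diet cells, so the transcript was found in nearly every such cell of both libraries.

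Igfbp1 showed the largest difference of the 9 genes. It encodes the binding protein that insulin represses within hours and fasting induces, and lies on chromosome 11 from 7197782 to 7202546 on the plus strand. The chow library held 9380 Igfbp1 UMIs and the NASH diet library 456. The levels were 210 CPM (206 to 215) and 21.9 CPM (19.95 to 24.0), and the log2 ratio was -3.001. By absolute size, 23 of 7893 genes had a ratio at least as large. Among single cells the median level was 156 CPM with chow and 0 with the NASH diet. After thinning, an Igfbp1 UMI was seen in 55.3% of cells with chow (52.9 to 57.7%), against 8.12% with the NASH diet (6.45 to 10.1%). Endothelial-like cells, which need not express it, held an Igfbp1 UMI in 4.48% of 67 cells with chow, at a median depth of 3693 UMIs. With the NASH diet they held 0 UMIs in 55 cells, at a median depth of 5182.

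Igfbp2, a binding protein that leptin and insulin signalling are known to influence (chromosome 1, 72824503 to 72852474, plus strand), went the other way. Its 4793 chow UMIs gave 108 CPM (105 to 111) and its 5811 NASH diet UMIs gave 279 CPM (272 to 287), and the log2 ratio was 1.34. The share of thinned cells with a UMI was 36.8% (34.5 to 39.1%) and 62.6% (59.4 to 65.7%). Cells with 3 or more Igfbp2 UMIs after thinning made up 4.13% and 20.5% of the libraries' cells. With the mitochondrial limit set at 20% the log2 ratio of Igfbp2 was 0.91, under the 2-fold limit, in a class that then took in low-UMI barcodes of the chow library.

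Igfbp4, a binding protein made by many tissues (chromosome 11, 99041244 to 99054392, plus strand), was near level between diets. It stood at 1079 CPM with chow and 1189 CPM with the NASH diet, and the log2 ratio was 0.14. It was found in 99.1% of thinned chow cells and 99.0% of thinned NASH diet cells. Its counts were also even from cell to cell: the variance over the mean was 1.202 and 1.31, against medians of 1.62 and 2.28 among genes of like mean.

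The windows before the start sites of Igfbp1 and Igfbp2, the binding protein genes whose diet differences had opposite signs, are shown because insulin and feeding are known to act on these genes. RefSeq windows of build GRCm38.p6 were found for 8 of the 9 genes, 12 windows in all, and the 250 bases before each start were searched on both strands for 6 motifs. The motifs were TTCNNNGAA (STAT5), GTAAACA and CAAAACA (FOXO and the insulin response element), CACGTG (the E-box core), AGGTCA repeated after 1 further base (PPAR) and TGACGTCA (CREB). TTCNNNGAA, CACGTG and TGACGTCA read the same on both strands. Capitals mark a match. The Igfbp1 window is on the plus strand at chr11:7197537-7197786 and the first Igfbp2 window on the plus strand at chr1:72824230-72824479.
Igfbp1: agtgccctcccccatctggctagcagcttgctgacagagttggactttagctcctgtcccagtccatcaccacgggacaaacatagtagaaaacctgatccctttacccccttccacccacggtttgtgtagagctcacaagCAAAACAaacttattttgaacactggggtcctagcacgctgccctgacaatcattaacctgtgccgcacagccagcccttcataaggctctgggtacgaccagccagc
Igfbp2: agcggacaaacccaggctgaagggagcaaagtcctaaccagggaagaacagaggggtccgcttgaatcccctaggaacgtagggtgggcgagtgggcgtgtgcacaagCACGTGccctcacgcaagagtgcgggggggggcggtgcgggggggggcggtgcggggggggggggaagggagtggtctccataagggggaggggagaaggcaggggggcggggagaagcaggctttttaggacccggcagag
The Igfbp1 window holds CAAAACA 108 bases before the start, letters found in 5.56% of 32851 promoter windows of the same length. The Igfbp2 window printed, the first of 2, holds CACGTG 142 bases before the start, and the second Igfbp2 window has no match. Fgf21 has CACGTG 50 bases before its start, and 6.02% of all windows hold it. Of the 3 Prlr windows 1 held GTAAACA and TTCNNNGAA, found in 3.17% and 7.02% of windows. The PPAR repeat was in 0.0335% of windows and TGACGTCA in 1.55%, and the members' windows held neither. The windows of Igf1, Igfbp4, Ghr and Angptl8 held none of the 6 motifs. A match is a run of letters and no measure of binding.

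Fgf21, the hormone of fasting and of cell stress (chromosome 7, 45613886 to 45615490, minus strand), was the scarcest of the 9. It had 332 UMIs in chow hepatocyte-like cells and 123 in NASH diet cells, giving 7.45 CPM (6.67 to 8.29) and 5.91 CPM (4.91 to 7.05). The log2 ratio was -0.19, and without a pseudocount its interval ran from -0.64 to -0.03. After thinning, a UMI was seen in 3.54% of cells (2.71 to 4.53%) and 2.88% of cells (1.91 to 4.17%), and these intervals overlap. With the NASH diet a single cell held 12.2% of the Fgf21 UMIs.

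Angptl4, an inhibitor of lipoprotein lipase that fatty acids induce through PPAR receptors (chromosome 17, 33773750 to 33781830, minus strand), was level between diets. It stood at 73.2 CPM (70.8 to 75.8) and 74.0 CPM (70.3 to 77.8), and the log2 ratio was 0.01. Angptl8, the partner protein that feeding and insulin induce (chromosome 9, 21835510 to 21837347, plus strand), stood at 55.0 CPM (52.8 to 57.2) and 112 CPM (108 to 117). Its log2 ratio of 0.97 was just under the 2-fold limit. It passed the limit with a pseudocount of 1 CPM (1.02) and with mitochondrial UMIs left out of the total (1.05). It also did so with a mean over cells (1.84), where shallow cells weigh as much as deep ones. With a mitochondrial limit of 20% the ratio was 1.46, in a class that then took in low-UMI barcodes of the chow library. Under the other processing alternatives the ratio in the class stayed below the limit. It was 0.67 with a mitochondrial limit of 50%, 0.82 with a pseudocount of 20 CPM and 0.83 with scaling by the median ratio. Angptl8 lies within Dock6 on the opposite strand. Dock6 stood at 3.798, 3.32 and 5.10 CPM in the 3 main chow clusters and at 1.74 and 3.81 CPM in the 2 main NASH diet clusters.

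The Angptl8 level rested in part on the nuclear RNA cluster. Against the pooled named classes other than hepatocytes, Angptl8 is a leading gene of that cluster, so its level there is a description. Against all other cells it is not among the leading genes. The 74 NASH diet cells of that cluster, 7.46% of the library's hepatocyte-like cells, held 476 of 2339 Angptl8 UMIs, or 20.4%. Angptl8 stood there at 1459 CPM in NASH diet cells and 724 CPM in chow cells, against 46.3 to 79.5 CPM in the main chow clusters and 72.6 and 116 CPM in the main NASH diet clusters. Angptl4 was also higher in that cluster, at 377 CPM in its NASH diet cells, while Igfbp4 was lower, at 355 CPM. These NASH diet cells held 1.57% of the UMIs of all genes in the class. Their share was larger for Igfbp1 (12.1%), Angptl4 (7.99%), Fgf21 (5.69%, from 7 UMIs), Prlr (5.09%), Ghr (3.13%) and Igf1 (1.82%). It was smaller for Igfbp2 (1.12%) and Igfbp4 (0.47%). Dock6 stood there at 33.7 CPM. A small hepatocyte-like cluster with interferon-induced genes at its head also had Angptl8 among its leading genes only against those pooled classes. Angptl8 stood there at 250.5 CPM (174 to 348) in 7 chow cells and 117 CPM (60.2 to 204) in 8 NASH diet cells. All hepatocyte-like cells had 55.0 CPM with chow and 112 CPM with the NASH diet. Without the nuclear RNA cluster Angptl8 was at 53.7 CPM with chow and 91.0 CPM with the NASH diet, and the log2 ratio was 0.71. The other members kept their direction and side of the 2-fold limit, except that Angptl4, level before, had a log2 ratio of -0.08. Malat1 stood at 49275 CPM in the NASH diet cells of the nuclear RNA cluster. The part of nuclear RNA in the rest of the Angptl8 difference was not tested.

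**Figure D2:**
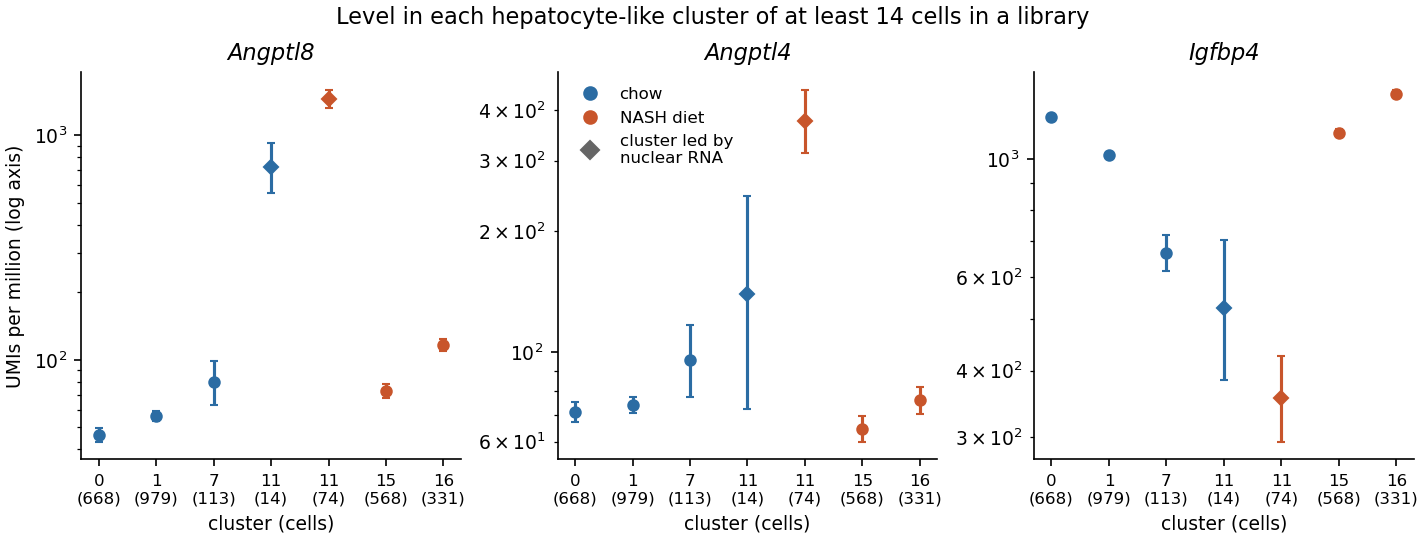
Summed level of Angptl8, Angptl4 and Igfbp4 in each hepatocyte-like cluster with at least 14 cells in a library, in CPM on a log axis with exact 95% Poisson intervals; the number of cells is in brackets. Diamonds mark the cluster led by nuclear RNA, where Angptl8 reached 1459 CPM and Igfbp4 355 CPM in NASH diet cells.

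Barcodes of every class, without the marked doublets, were also split by mitochondrial share, over 5 ranges from 0 to 80%, at 5000 UMIs or more. These levels are therefore not those of hepatocyte-like cells alone, and the part of cell mix in them was not tested. Igfbp1 was lower in the NASH diet library in 5 of 5 ranges, with log2 ratios from -3.27 to -1.49, and Prlr in 5 of 5, from -1.66 to -0.63. Igfbp2 was higher in 5 of 5, from 0.79 to 1.90, and Angptl8 in 5 of 5, from 0.53 to 2.27. Ghr was higher in 4 of 5. Barcodes under 10% mitochondrial UMIs held Igfbp1 at 47.0 CPM with chow and 10.1 CPM with the NASH diet, both below the 211 and 29.95 CPM of the 10 to 20% range.

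Hepatocytes along the axis from portal tract to central vein differ in metabolism, and zones were read from a score over 10 pericentral and 10 periportal genes that holds none of the 9. Each library was ranked on its own and cut into 3 equal zone groups (periportal, middle, pericentral), with 128 of 1783 chow and 86 of 992 NASH diet cells lying within 0.1 of a cut. In the chow library Igf1 was at least 1.5-fold higher in the periportal group, as were 3.07% of genes, and Ghr and Prlr were so in the pericentral group, as were 4.75%. In the NASH diet library Igf1 was again periportal, where 3.08% of genes were, and Igfbp1, Angptl8 and Prlr were pericentral, where 9.88% were. The median log2 ratio of pericentral over periportal over all genes tested, score genes left out, was 0.09 with chow and 0.19 with the NASH diet. Whether a zone difference changed with diet could not be tested with 1 library each.

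Igf1 declined from 967 CPM in the periportal group to 610 CPM in the pericentral group with chow, and the log2 ratio of pericentral over periportal was -0.66. With the NASH diet it had 1088 and 599 CPM, and the ratio was -0.86. Ghr, the receptor upstream of it, had the opposite slope, with 231 and 367 CPM for chow (0.66) and 371 and 552 CPM for the NASH diet (0.57). Prlr went with Ghr, at 87.7 and 148 CPM (0.72) and at 32.9 and 69.9 CPM (0.98). Receptor and hormone transcripts were thus higher at opposite ends of the lobule in both libraries. Across single thinned cells the zone score went with Igf1 at a Spearman rho of -0.33 over 1695 cells of the chow library and -0.39 over 936 of the other, and with Ghr at 0.19 and 0.26; these cells share a library.

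Igfbp2 was highest between the ends. By group it stood at 73.7, 148 and 105 CPM from periportal to pericentral with chow and at 205, 399 and 248 CPM with the NASH diet. Over 10 bins it peaked in bin 7, at 224 CPM and 539 CPM, and was lowest in bin 10, the most pericentral, at 25.1 CPM and 51.6 CPM. The cells next to the central vein, which make glutamine synthetase (Glul), fall in that bin. The ratio of the outer groups was therefore positive in both libraries, at 0.48 and 0.27, and turned negative with the outer bins of 5, at -0.16 and -0.34.

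The Igfbp1 ratio between zones was larger in the NASH diet library, where few of its UMIs remained. The chow library had 158, 251 and 227 CPM from periportal to pericentral, and the NASH diet library 7.84, 18.5 and 36.4 CPM. The outer groups differed by a log2 ratio of 0.50 with chow and 1.69 with the NASH diet, the latter from 52 and 289 UMIs and at 1.52 without the nuclear RNA cells. Angptl8 had 52.1, 63.3 and 50.04 CPM with chow and 70.8, 126 and 136 CPM with the NASH diet. In the latter library 39 and 29 of the 74 nuclear RNA cells lay in the middle and pericentral groups, and without them the Angptl8 log2 ratio of the outer groups was 0.69 rather than 0.90. Angptl8 in bin 7 was 219 CPM with these cells and 97.1 CPM without them, against 124 CPM in bin 9 without them. Igfbp4 was slightly higher in the pericentral group, at 0.27 and 0.29, beside medians over all genes of 0.09 and 0.19. Angptl4 had -0.05 and 0.31, and Fgf21 was lower in the pericentral group of both libraries, from 59 and 22 UMIs.

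**Figure D3:**
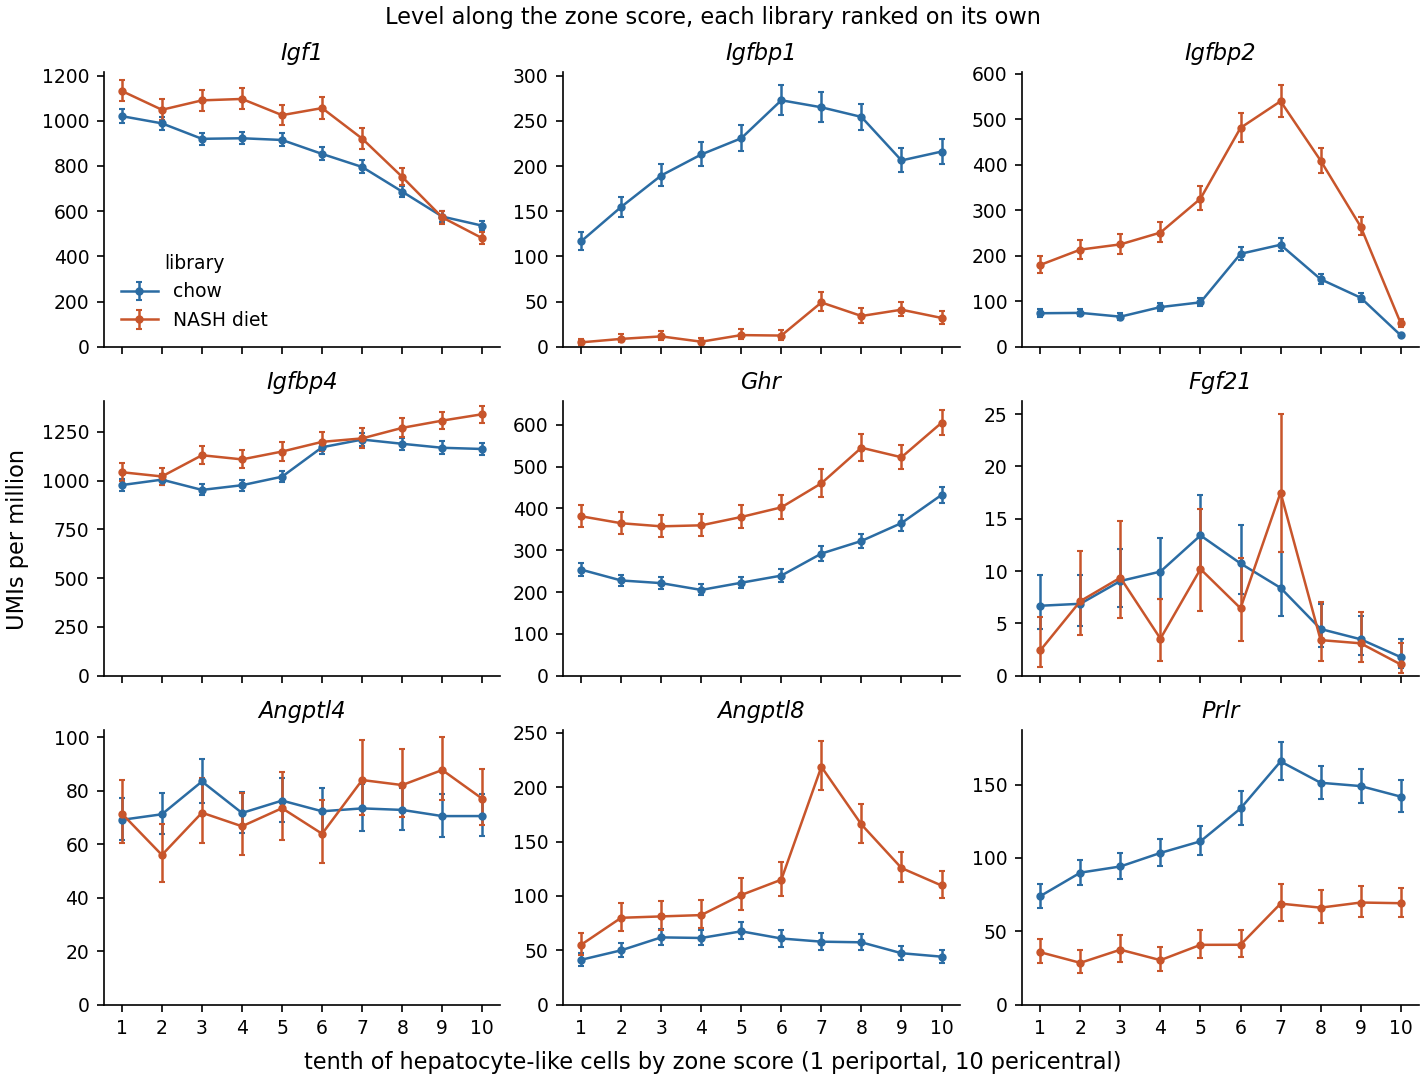
Summed level of each gene in 10 bins of hepatocyte-like cells ranked by zone score within each library, from periportal (1) to pericentral (10), in CPM from 0 with exact 95% Poisson intervals. Igf1 is lowest and Ghr highest in bin 10 of both libraries, and Igfbp2 peaks in bin 7 at 224 and 539 CPM.

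The diet difference held its direction in each zone group for the genes past the 2-fold limit. From periportal to pericentral the log2 ratio of Igfbp1 was -3.67, -3.45 and -2.49, that of Igfbp2 1.42, 1.40 and 1.2003, and that of Prlr -1.29, -1.47 and -1.03. Ghr had 0.67, 0.74 and 0.58. Angptl8 had 0.41, 0.94 and 1.36, with the nuclear RNA cells included. The median over all genes in these groups was 0.05, 0.12 and 0.15.

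The genes whose profile over the 10 zone bins was most like that of a member were ranked by the lower of the libraries' Pearson r among 4105 genes, as a description of summed cells that share a library and a ranking. For Igf1 they were C8a, Hsd11b1 and Serpina12, at 0.99, 0.98 and 0.98. For Igfbp2 they were Ces1e, Id2 and Slc35d1, at 0.92, 0.89 and 0.85. Ghr was closest to Cyb5a, Acot1 and Akr1c20, each at 0.97 or 0.98, and Prlr to Eps8l2, S1pr1 and Fermt2, each at 0.95. Igfbp4 was closest to Glud1, Hsd3b5 and Cideb, each at 0.95. Angptl8 was closest to Egr1, Nfkbia and Ubn2, at 0.91, 0.86 and 0.80, of which Egr1 and Nfkbia are rapid response genes. Without the nuclear RNA cells, which filled 29 places of bin 7 in the NASH diet library, these values were 0.83, 0.81 and 0.24. Angptl4 had no near match, with Papd5 at 0.68, Angptl8 at 0.61 and Gdf15 at 0.59, and at 0.67, 0.29 and 0.30 without those cells.

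Spread between cells differed among the genes. After thinning, the variance over the mean was 1.88 and 1.84 for Igfbp1 with chow and with the NASH diet, above 97.4% and 99.5% of genes of like mean. Without the nuclear RNA cells it was 1.70 and 1.27. Igfbp2 had 1.45 and 1.92, above 97.1% and 93.5% of such genes. Angptl8 had 1.44 with chow and 4.49 with the NASH diet, where the 10% of cells with most Angptl8 held 63.1% of its UMIs. Without the nuclear RNA cells Angptl8 had 1.19 and 1.43, and that share was 55.9%. Igf1 and Igfbp4 were more even than most genes of like mean. Between pairs of members the rank correlation over thinned cells was between -0.19 and 0.16 in both libraries, and in counts this sparse such values are no finding.

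**Figure D4:**
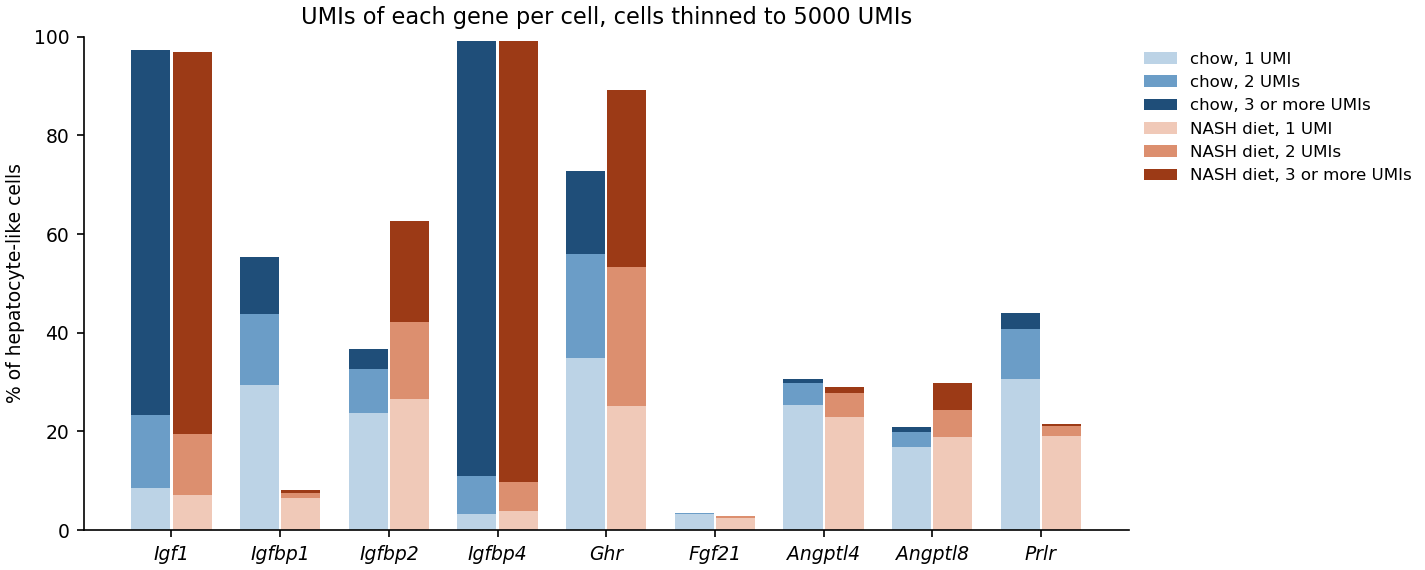
Share of hepatocyte-like cells with 1, 2 or 3 or more UMIs of each gene after each cell was thinned to 5000 UMIs, in 1695 chow cells (blue) and 936 NASH diet cells (orange); the rest of each bar up to 100% held 0 UMIs. Igfbp1 was found in 55.3% and 8.12% of cells and Igfbp2 in 36.8% and 62.6%.

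Outside hepatocytes, Igfbp1 and Fgf21 stayed within counting error of what free hepatocyte RNA would give in endothelial-like, mononuclear phagocyte-like and mesenchymal-like cells. That level was set from the UMIs of 10 hepatocyte markers in each class, at the ratio found in hepatocyte-like cells. Igfbp4 stood furthest above it in endothelial-like and mesenchymal-like cells. Endothelial-like cells held 335 Igfbp4 UMIs in 67 chow cells and 368 in 55 NASH diet cells, where free RNA would give 20.6 and 15.8. This put Igfbp4 at 1266 CPM and 1045 CPM in these cells, beside 1079 CPM and 1189 CPM in hepatocyte-like cells. Mesenchymal-like cells had 870 CPM and 840 CPM, from 18 and 19 cells, against free RNA of 5.97 and 6.72 of their 140 and 234 UMIs.

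Igf1 also stood above free RNA in mononuclear phagocyte-like cells, a class that holds Kupffer cells, the resident macrophages of the liver. The leading genes of its cluster also included Ighm, a B cell marker, and the part of other leukocytes in the class was not tested. The 90 chow cells of that class held 201 Igf1 UMIs, or 362 CPM, where free RNA would give 17.5 UMIs. The 94 NASH diet cells held 47 UMIs, or 117 CPM, where it would give 20.8. Cells with at least 3 of 6 Kupffer markers numbered 65 and 33 and had Igf1 at 462 CPM (399 to 532) and 344 CPM (240 to 478). The other 25 and 61 cells of the class had 58.1 CPM and 40.0 CPM, from 8 and 12 UMIs against 4.75 and 14.4 from free RNA. Cells with Kupffer markers thus made up different shares of the class in the libraries, and this split was chosen after the values were seen. Median depth was 4587 and 1584 UMIs in cells with the markers and 954 and 2482 UMIs in the others. The part of depth in marker detection was not tested. Mesenchymal-like cells had 25 and 26 Igf1 UMIs, against 4.56 and 5.02 from free RNA. Endothelial-like cells had 16 and 21, against 15.7 and 11.8.

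Ghr stood above free RNA in endothelial-like cells, at 60.5 CPM and 53.9 CPM, from 16 and 19 UMIs against 5.28 and 5.95. In mesenchymal-like cells it had 7 and 12 UMIs against 1.53 and 2.53, and in phagocyte-like cells 6 and 19 against 5.90 and 10.5. Of the 19, 14 lay in cells under 3 of 6 Kupffer markers, where free RNA would give 7.26. Angptl4 had 3 and 5 UMIs in mesenchymal-like cells, against 0.41 and 0.42. Prlr had 9 UMIs in chow phagocyte-like cells against 2.56, 3 of them in 1 cell, and 2 against 1.17 with the NASH diet. Igfbp2 had 8 UMIs in chow phagocyte-like cells against 2.29, and Angptl8 had 8 in NASH diet phagocyte-like cells against 2.63. Fgf21 had 0 UMIs in the phagocyte-like cells of both libraries, with exact upper limits of 6.64 CPM and 9.18 CPM. With the free RNA ratio taken from low-UMI barcodes instead, an alternative chosen after the values were seen, 4 of these excesses came within counting error. They were Igf1 in NASH diet endothelial-like cells, Ghr and Angptl8 in NASH diet phagocyte-like cells and Igfbp2 in chow phagocyte-like cells.

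**Figure D5:**
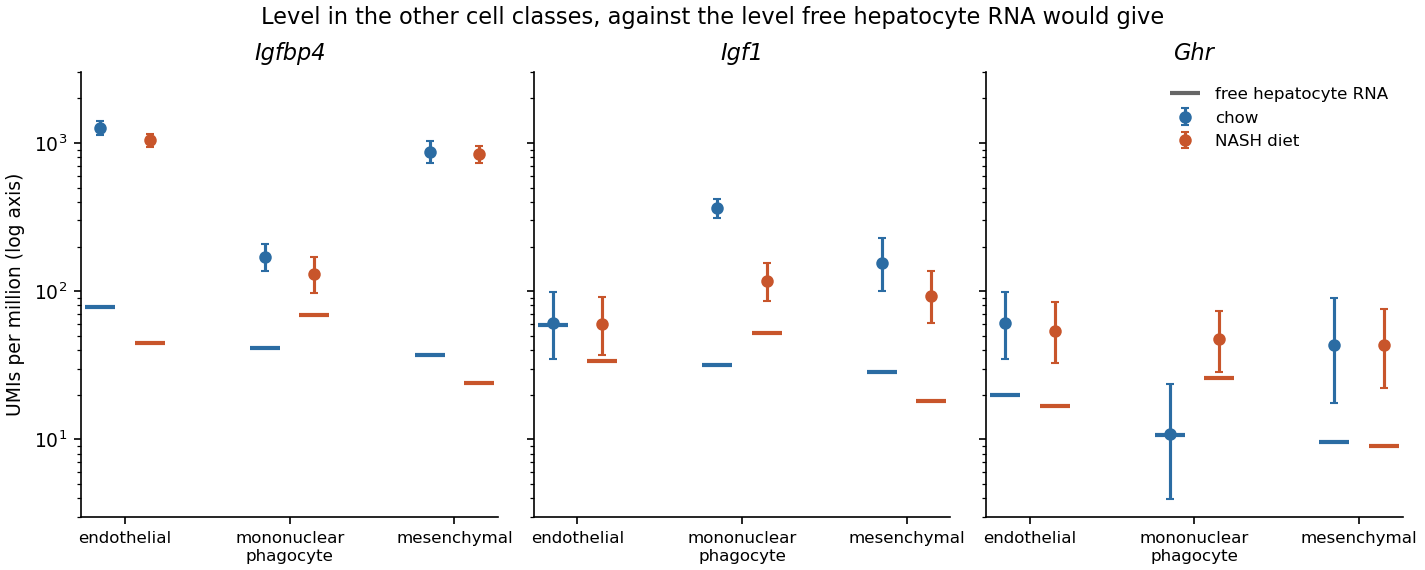
Summed level of Igfbp4, Igf1 and Ghr in endothelial-like, mononuclear phagocyte-like and mesenchymal-like cells, in CPM on a log axis with exact 95% Poisson intervals; horizontal bars show what free hepatocyte RNA would give. Igfbp4 in endothelial-like cells, at 1266 and 1045 CPM, lies far above its bar, while Igf1 in chow endothelial-like cells lies on it.

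The rest of the axis was read from lists of related genes, beside a background of 2.19% of all genes tested at least 2-fold higher and 1.58% lower. Of 15 tested genes of growth hormone and IGF signalling, 1 was at least 2-fold higher and 1 at least 2-fold lower, with a median log2 ratio of -0.05 against 0.11 for all genes tested. Bcl6, a repressor of growth hormone target genes, stood at 7.58 and 27.1 CPM (1.35). Socs3 and Socs2, feedback inhibitors of cytokine and growth hormone receptors, were at 63.0 and 22.0 CPM (-1.33) and at 37.1 and 17.4 CPM (-0.91). Jak2, Stat5a, Stat5b, Cish and Igfals had ratios between -0.14 and 0.18. Of 14 tested male-biased genes of the growth hormone pattern, 0 were higher and 1 was lower, with a median of 0.13. Elovl3, a fatty acid elongase, had -1.51, Cyp4a12a, a fatty acid hydroxylase, 0.95, and Cyp7b1, an oxysterol hydroxylase, -0.84. Of 15 female-biased genes listed, 1 reached a mean of 5 CPM, the thioesterase Acot3, at 1.03 and 15.7 CPM (1.78).

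Of 16 tested genes of the insulin and fasting list 0 were at least 2-fold higher and 2 were lower, with a median of 0.05 over values of both signs. Cdkn1a, a cell cycle inhibitor, had -1.35, Sgk1, a kinase induced by steroids and insulin, -1.27, and Tat, a tyrosine aminotransferase, -0.95. Pck1, the gluconeogenic enzyme, had -0.55. Of 21 tested PPARA targets, the fasting receptor's genes of fatty acid use, 11 were at least 2-fold higher and 0 lower, with a median of 1.01. Cyp4a10 and Cyp4a14, fatty acid hydroxylases, had 4.41 and 3.70, and Acot1, a thioesterase, 3.16. Counts of near-identical copies, as in the Cyp4a and Orm families, may have been split between genes and are uncertain. Fgf21 and Angptl4, which PPARA is known to induce, had -0.19 and 0.01 beside them.

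Of 13 tested FGF21 receptors and regulators 2 were higher and 0 lower, with a median of 0.30. These were Cyp7a1, the first enzyme of bile acid synthesis, with 2.43, and Ppara with 1.31, while Fgfr2 had -0.65 and Klb -0.02. Of 10 tested partners of lipoprotein lipase 3 were higher and 0 lower, with a median of 0.52. Lpl, the lipase that Angptl4 and Angptl8 restrain, had 35 UMIs with chow and 1125 with the NASH diet, and its log2 ratio was 3.35. Apoa4, an apolipoprotein, had 2.75 and Cd36, a fatty acid transporter, 2.22. Of 25 other secreted factors 1 was higher and 6 were lower, with a median of -0.20. Orm2, an acute-phase protein, had -4.34, and Enho, which encodes adropin, -2.46.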

How the data were processed

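Single-cell RNA from 1 chow and 1 NASH diet liver library was analysed from the libraries' own matrices. The deposited values were UMI counts, whole numbers without normalization; the matrix headers name software version 3.0.2, and per the submitters' processing notes Cell Ranger 3.1.0, Seurat and mm10 were used. A merged matrix, in which the chow library had 86.4% of its own UMIs, served as an alternative. Columns with no sample numbered 0.

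Barcodes under 200 genes or under 500 UMIs, or above 30% mitochondrial UMIs, were left out. Doublets were the highest Scrublet scores at 0.8% per 1000 barcodes, since Scrublet's own threshold called 0. Cells of both libraries were clustered together (scanpy 1.11.5; 2000 variable genes, 30 components, 15 neighbours, Leiden resolution 1.0, seed 0) and named from markers of 12 classes; hepatocyte-like clusters were named against the pooled other named clusters. Counts were summed per library and class, and genes with a mean of at least 5 CPM are those called tested, set against a 2-fold limit (1.5-fold between zones). Cells were thinned to 5000 UMIs for shares, leaving out 88 chow and 56 NASH diet cells. The ratio and its interval were checked on simulated counts that held counting error alone, so the check does not cover spread between cells or mice.

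All 9 members are named, with the 3 genes of each related list that had the largest absolute ratio, the 3 genes most like each member with at least 500 UMIs in each library, and genes a result turns on. Jak2, Stat5a, Stat5b, Cish, Igfals, Pck1 and Klb were named after their values were seen. A gene that this rule names among the other secreted factors is not reported here. Members and lists were chosen with earlier results of these data known. Gene IDs were matched to GENCODE M21 (GRCm38), which held 30934 of 31053. Replicates were not available, so p-values were not computed.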

Additional observations from a re-analysis of the deposited data

Results flagged for a closer look

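The Angptl8 ratio along the lobule was slightly below 0 in one library and above 0 in the other. The log2 ratio of the pericentral over the periportal zone group was -0.05 with chow, with an interval without pseudocount of -0.20 to 0.09, and 0.90 with the NASH diet, with an interval of 0.79 to 1.10, so that the libraries differed by 0.95. The difference was not tested, since each diet had 1 library, and the chow interval includes 0. Without the cells of the nuclear RNA cluster the values were -0.11 and 0.69.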

How the results depend on the processing

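The count of members at least 2-fold higher in the NASH diet library was 1 as reported and 2, Igfbp2 and Angptl8, with CPM over non-mitochondrial UMIs, with a pseudocount of 1 CPM and with a mean over cells. With a mitochondrial limit of 20% the count was again 1, but the member was Angptl8 (1.46) and Igfbp2 had 0.91; that class held 3146 chow cells, low-UMI clusters among them. The count of lower members was 2 under each alternative but Leiden resolution 2.0, where Fgf21 joined with -1.66; the planned naming rule then left 129 chow and 11 NASH diet cells in the class. With the cholangiocyte cluster out of the comparison pool, chosen after seeing the data, that resolution gave 1730 and 985 cells, and Igfbp1 had -3.02, Igfbp2 1.304 and Prlr -1.2005. In the chow library 3 members differed 1.5-fold between the outer of 3 zone groups and 5 between the outer of 5. Of 153 other values of the diet ratio 142 had the sign of the main value, the exceptions being Angptl4, Igf1 and Igfbp4, whose main ratios were at most 0.14. In size, 57 of the 153 lay outside the counting error of the main value. Over these alternatives Igfbp1 ran from -4.80 to -2.46, Igfbp2 from 0.91 to 1.42, Prlr from -1.32 to -1.002 and Angptl8 from 0.29 to 1.84. Leaving out the nuclear RNA cluster, chosen after seeing the data, took the Angptl8 variance over mean with the NASH diet from 4.49 to 1.43. Over zone ratios 137 of 144 kept their sign, and the exceptions were values of Angptl4, Angptl8, Fgf21 and Igfbp2. In size, 25 of the 144 lay outside the counting error of the main value. No paired analysis was possible because each diet had 1 library, and leaving out a replicate was not possible either. Fgf21 was limited by depth, with 123 UMIs in the NASH diet class.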
